A study of Mus musculus with 6 samples.

Results

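The genes described here are the 9 mouse prostanoid receptor genes, Ptgfr, Ptger1, Ptger3, Tbxa2r, Ptgir, Ptger2, Ptger4, Ptgdr and Ptgdr2. Their members in the chromatin data were taken by position from the regions called open in either genotype. The receptor genes were chosen with earlier results of these data known. A region belonged to a receptor when it overlapped the gene body extended by 50 kb on both sides, in the merged list of reproducible open regions of both genotypes. Of 66679 merged regions, 73 met that rule. They numbered 22 at Ptgir, 14 at Tbxa2r, 9 at Ptgdr2, 8 each at Ptger1 and Ptger4, 5 at Ptger2, 3 at Ptgdr and 2 each at Ptgfr and Ptger3.

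Prostanoid receptors are G protein-coupled receptors on the cell surface that bind prostaglandins and thromboxane made from arachidonic acid. In smooth muscle they work in opposite directions. The FP (Ptgfr), EP1 (Ptger1), EP3 (Ptger3) and TP (Tbxa2r) receptors raise calcium or lower cAMP and contract the cell, whereas the IP (Ptgir), EP2 (Ptger2), EP4 (Ptger4) and DP1 (Ptgdr) receptors raise cAMP and relax it. DP2 (Ptgdr2) is best known as a chemoattractant receptor of immune cells. In the oviduct, whose muscle moves gametes and embryos, prostaglandins are known regulators of contraction.

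Accessibility was measured by ATAC-seq, in which the Tn5 transposase cuts open chromatin, in primary oviductal muscle cells of mice aged 8 to 12 weeks on day 2 of pregnancy. The libraries were 3 WT and 3 Pbrm1 cKO, the latter with a conditional knockout of Pbrm1, which encodes a subunit of the SWI/SNF remodelling complex. All mice were mated. In the study's methods, written for uterine cells, the cells of both genotypes were enzymatically dissociated, filtered and plated for some hours before tagmentation. In the same methods, the knockout was made in females carrying Pbrm1 fl/fl and PR-IRES-cre. This Cre follows the progesterone receptor gene and is not limited to muscle. The littermate controls carried Pbrm1 fl/fl without Cre. The deleted gene itself cannot be checked in peak lists. Whether each library came from 1 animal was not given in the sources used here, so the p-values below measure the spread among these libraries. The series was designed to find where accessibility differs between the genotypes.

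Each library had 1 relaxed list of 298563 to 300000 entries. WT library 3 stood apart, with an entry at 95.4% of the merged regions against 98.9% to 99.4% in the others. At the member regions its summits held a median of 21 tags (aligned transposase ends over the peak's highest point), against 33.5 to 40 in the other 5 libraries. All 6 smooth muscle markers had an open promoter, among them Acta2 and Myh11, as did all 4 endothelial markers, 3 of 4 fibroblast markers, 1 of 6 epithelial markers (Foxj1) and 1 of 4 immune markers (Cd68). The cells were therefore not shown to be muscle alone, and Epcam, Krt8, Krt18 and Ptprc had no promoter region. The smallest limma adjusted p of a marker between genotypes was 0.409, at Cnn1.

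Sequences around the summits are given for the receptor promoter that ranked highest, for 2 relaxant receptor promoters found in only 1 genotype's list, for the region with the smallest p and for the distal region with the best mean rank. Capitals mark any match to a searched motif. They are reference bases of GRCm38 on the strand of the receptor gene, 5′ to 3′, and bases in exons were left out.
Ptger4 promoter, chr15:5244196-5244396, minus strand: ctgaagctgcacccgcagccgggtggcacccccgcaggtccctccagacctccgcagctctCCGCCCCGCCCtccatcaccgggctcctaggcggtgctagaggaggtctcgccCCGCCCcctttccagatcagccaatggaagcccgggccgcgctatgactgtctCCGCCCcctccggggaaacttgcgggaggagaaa
Ptgir promoter, chr7:16905778-16905978, plus strand: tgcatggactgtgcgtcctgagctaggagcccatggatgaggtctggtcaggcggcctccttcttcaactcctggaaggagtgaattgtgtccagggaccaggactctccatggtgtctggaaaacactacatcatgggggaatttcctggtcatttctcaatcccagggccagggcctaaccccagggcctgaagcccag
Ptgdr promoter, chr14:44859451-44859518, minus strand: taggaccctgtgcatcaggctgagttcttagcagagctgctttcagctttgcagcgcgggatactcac
Ptgdr distal region, chr14:44865831-44866031, minus strand: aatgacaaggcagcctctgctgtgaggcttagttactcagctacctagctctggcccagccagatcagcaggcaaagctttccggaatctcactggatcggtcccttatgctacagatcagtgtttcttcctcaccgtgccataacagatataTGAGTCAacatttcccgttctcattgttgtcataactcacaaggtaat
Ptgdr2 distal region, chr19:10952078-10952278, plus strand: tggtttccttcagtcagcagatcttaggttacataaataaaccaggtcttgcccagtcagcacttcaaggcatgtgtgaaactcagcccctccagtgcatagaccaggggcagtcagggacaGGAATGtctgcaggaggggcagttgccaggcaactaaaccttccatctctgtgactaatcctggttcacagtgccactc

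The searched letters were AP-1 (TGANTCA), the GC box (GGGCGG), the cAMP response element (TGACGTCA), TEAD (GGAATG), the letters AGATAA read by GATA factors, the CArG box, and the steroid and oestrogen response palindromes. Both strands were read, over 100 bases on either side of each summit. In the Ptger4 promoter the capitals are GC boxes read on the other strand, and the first capital run is a pair of them sharing 1 base. The capitals of the Ptgdr distal sequence are an AP-1 match, and those of the Ptgdr2 sequence a TEAD match. Over all members, 20 of 73 windows held a GC box (27.4%, against 19.3% of all merged regions) and 13 held an AP-1 match (17.8% against 34.0%). The GC boxes lay mainly at starts, in 4 of 10 receptor promoters and 15 of 31 promoters of neighbouring genes but in 1 of 32 distal regions. AP-1 matches were in 9 of 32 distal regions and 0 of 10 receptor promoters. TEAD letters occurred in 6 member windows (8.22%, against 15.5% of all), GATA in 2 (8.31% of all), the CArG box in 2 (1.16% of all) and the cAMP response element in 2 (1.07% of all). The palindromes occurred in 0 of the 73 (steroid 0.351% and oestrogen 0.154% of all). Promoters made up more of the members than of all merged regions, which were 21555 promoter and 45124 distal regions. The comparisons with all regions mix in this difference in make-up. Shares over all regions within each class were not computed. These counts describe letters and not bound factors.

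Most open chromatin around the receptors did not lie at their own starts. Of the 73 regions, 10 were promoter regions of a receptor, meaning within 1 kb of one of its annotated transcription starts, 31 were promoters of other genes and 32 were distal. Of the distal regions 14 were intergenic, 10 intronic and 8 exonic, and 5 overlapped a receptor's own body at least in part. Both genotypes' lists held 56 of the 73 (76.7%, against 69.2% of all merged regions). The WT list alone held 10 (13.7%, against 13.4%) and the Pbrm1 cKO list alone 7 (9.59%, against 17.4%). There was 1 such list per genotype, so these counts have no replicate check, and which libraries entered each list was not given in the sources used here. Entries in single libraries were less selective, since 70 of the 73 regions (95.9%, against 93.5% of all) had one in all 6 libraries.

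**Figure D1:**
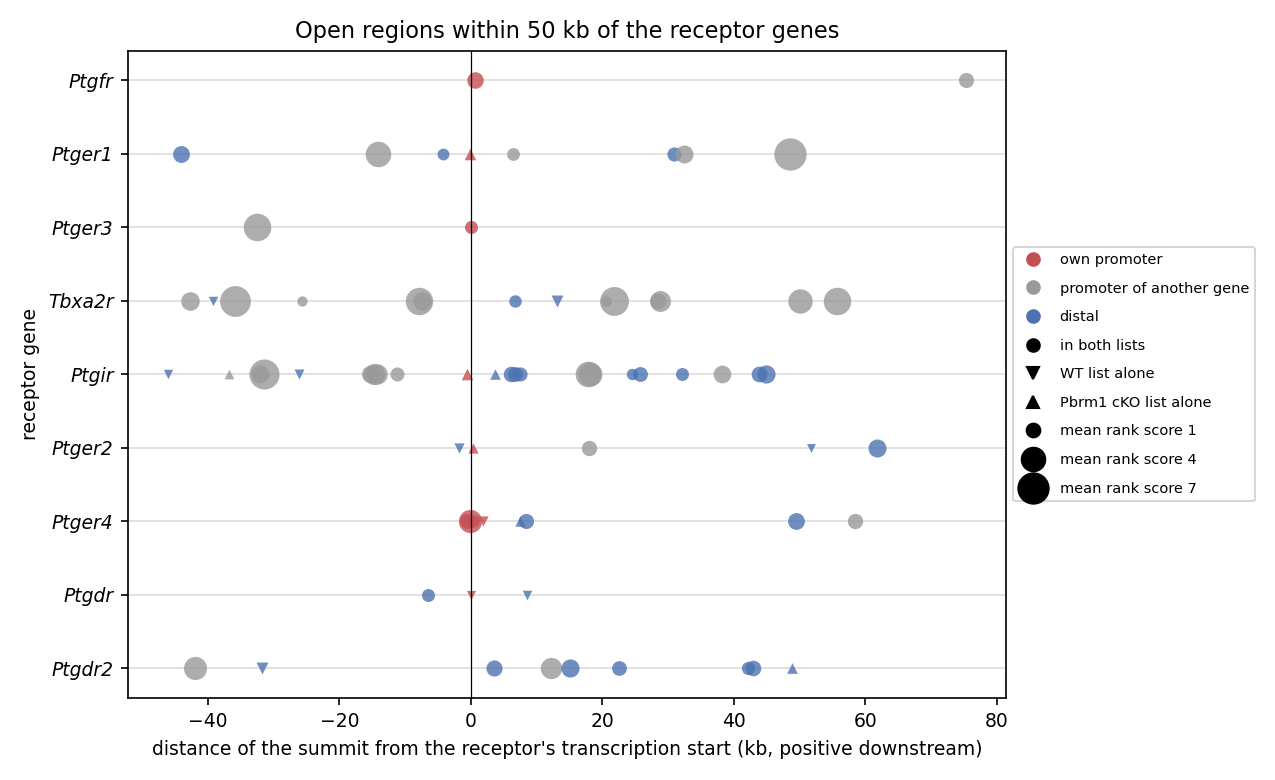
Each symbol is 1 of the 73 merged regions, placed by the distance of its summit from the transcription start of the receptor in kb. Colour gives the class, shape the list or lists that held it, and the area of a symbol grows with the mean rank score over 6 libraries. The 10 receptor promoter regions lie near 0, Ptger4 has the best of them, and Ptgfr and Ptger3 have 0 distal regions.

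The windows also differed in what surrounded the receptors. Ptgfr and Ptger3, both on chromosome 3, had 0 distal regions in their windows although their bodies are 41.1 and 79.0 kb long. Ptgir, a gene of 4.42 kb, had 11 distal regions and 10 promoters of other genes. Ptgdr2 had 7 distal regions and Ptger1, Tbxa2r, Ptger2 and Ptger4 had 3 each. In the relaxed lists the 9 windows held between 195 and 214 distinct intervals in the WT and between 190 and 207 in the Pbrm1 cKO libraries. Of these, 92 to 121 per library lay outside the merged regions. The totals of the genotypes overlapped.

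Next, every merged region was given a rank per library from the strongest −log10 p of its entries, with rank 1 the strongest of 66679. The rank score is log2 of the number of regions over the rank, so 1 unit is a factor of 2 in rank. Of the 9 receptors, 7 had a promoter region, whereas 62.8% of 21911 protein-coding genes had one. Ptger4 was far ahead of the others, with a mean rank of 5028 ± 2102 (SD over the 6 libraries), ahead of 78.0% of 18861 protein-coding promoter regions. Ptgfr followed at 20754.5 ± 4366, ahead of 44.2%. Both gaps held in every library, as 6 of 6 ranked Ptger4 above Ptgfr and 6 of 6 ranked Ptgfr above Ptger3.

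The remaining promoters were weak, and neighbours in their order did not differ beyond the spread of the libraries. Ptger3 had a mean rank of 37724 ± 9193, Ptgir 45635 ± 11109, Ptger1 45617 ± 8549, Ptger2 54100.5 ± 8924 and Ptgdr 60418 ± 8306. Ptger3 ranked above Ptgir in 4 of 6 libraries, Ptgir above Ptger1 in 2, Ptger1 above Ptger2 in 4 and Ptger2 above Ptgdr in 4. Among pairs further apart, Ptger3 ranked above Ptger2 and above Ptgdr in 6 of 6 libraries. Base composition differed between the receptors and followed this order only in part. The ratio of observed to expected CpG within 500 bases of the start was 0.854 at Ptger3, 0.695 at Ptger4, 0.497 at Ptgfr and 0.439 at Ptgdr. It was 0.189 to 0.228 at Ptgir, Ptger1 and Ptger2. At Tbxa2r and Ptgdr2, which had no promoter region, it was 0.167 and 0.162. The median over 21895 protein-coding genes was 0.552. Ptger4, Ptgfr and Ptger3 had the best ranks and the highest ratios. Ptgdr, ranked last, exceeded Ptgir, Ptger1 and Ptger2 in its ratio. No relation was tested.

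**Figure D2:**
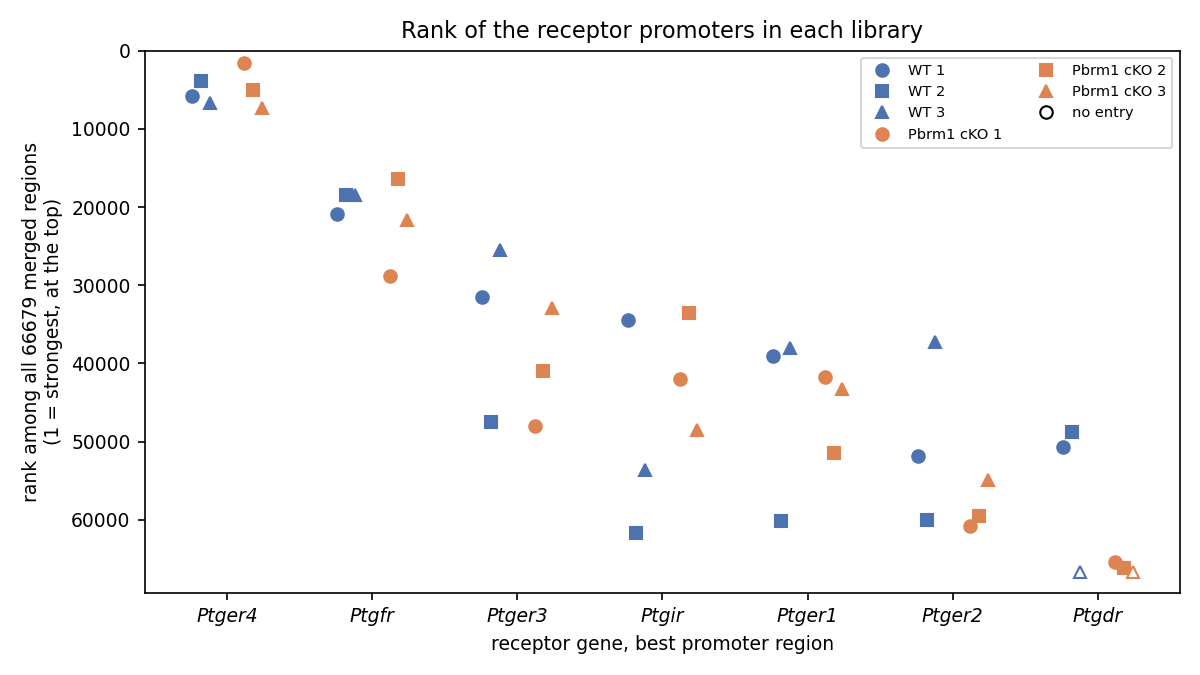
Rank of the best promoter region of each receptor in each library, with rank 1 at the top, blue for WT and orange for Pbrm1 cKO. Symbols mark the library number and open symbols a library with no entry. Ptger4 lies between ranks 1527 and 7351 in all 6 libraries, above every value of every other receptor.

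The contractile receptors came first in the comparison of genotypes. The Ptgfr promoter region (chr3:151836500-151837641), which also covers the start of the gene model Gm43618, ranked 20836, 18420 and 18410 in WT libraries 1, 2 and 3 and 28800, 16413 and 21648 in Pbrm1 cKO libraries 1, 2 and 3. The values of the genotypes overlapped. The difference in rank score, Pbrm1 cKO minus WT throughout, was −0.18 (SE 0.33, limma adjusted p = 0.845). The other region of its window, at the start of the interferon-induced gene Ifi44l, ranked 25033, 24156 and 24116 in WT and 26382, 32836 and 26476 in Pbrm1 cKO. Here every Pbrm1 cKO library stood below every WT library, by a small margin (−0.22, SE 0.31, limma adjusted p = 0.786).

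The Ptger3 promoter region (chr3:157566690-157568050) ranked 31510, 47548 and 25475 in WT and 47948, 40906 and 32958 in Pbrm1 cKO libraries (difference −0.25, SE 0.30, limma adjusted p = 0.735). The genotypes overlapped, and Ptger3 had the widest WT range of the stronger 3 receptor promoters. The Ptger1 promoter region (chr8:83665966-83667157) was in the Pbrm1 cKO list alone, yet ranked 39070, 60154 and 38067 in WT and 41676, 51403 and 43334 in Pbrm1 cKO libraries. The groups overlapped in spite of the membership of 1 list (−0.018, SE 0.23, limma adjusted p = 0.982). The best distal region of the Ptger1 window, 44.1 kb upstream (chr8:83622222-83622795), ranked 14988, 26265 and 33016 in WT and 16208, 12904 and 17768 in Pbrm1 cKO libraries. The genotypes again overlapped (0.60, SE 0.35, limma adjusted p = 0.425).

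At the promoter of Gipc1, a neighbour of Ptger1 that encodes a trafficking adaptor, the ranks were 4113, 2006 and 3301 in WT and 1735, 1992 and 1890 in Pbrm1 cKO libraries. The groups did not overlap but lay within a narrow span (0.69, SE 0.48, limma adjusted p = 0.517).

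Tbxa2r, the thromboxane receptor gene (chromosome 10, 81328731 to 81335172), had no promoter region in the merged list. The relaxed lists nevertheless held an entry next to its start in all 6 libraries. The entry whose summit was nearest to the start, 50 to 206 bases upstream of it, was supported by 11, 8 and 9 tags in the WT and by 10, 9 and 7 tags in the Pbrm1 cKO libraries. Stronger entries lay inside the gene, about 1 kb past the start, except in WT library 3, where both entries had 9 tags. The best −log10 p of all entries at the start was 6.99, 5.86 and 4.69 in WT and 15.4, 6.24 and 10.3 in Pbrm1 cKO libraries. Pbrm1 cKO libraries 1 and 3 were highest, and Pbrm1 cKO library 2 lay below WT library 1. These values depend on the depth of a library and were not tested. The best distal region of the window (chr10:81335153-81335780) overlapped only the last bases of the gene, and its summit lay past the gene's end. It ranked 43088, 31991 and 61142 in WT and 44305, 31107 and 33982 in Pbrm1 cKO libraries, with overlap (0.28, SE 0.28, limma adjusted p = 0.676). Of the 14 regions in the Tbxa2r window, 11 were promoters of other genes. The weaker of 2 regions at starts of the tight junction gene Tjp3 ranked 17266, 20721 and 13603 in WT and 13385, 8102 and 11415 in Pbrm1 cKO without overlap (0.66, SE 0.35, limma adjusted p = 0.365). The stronger one ranked 1129, 186 and 685 in WT and 916, 193 and 252 in Pbrm1 cKO, with overlap (0.56, SE 0.98, limma adjusted p = 0.833).

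Among the relaxant receptors, Ptger4 had the richest start, with 4 promoter regions. The main one (chr15:5243948-5244397), whose GC boxes are shown above, ranked 5771, 3868 and 6625 in WT and 1527, 5027 and 7351 in Pbrm1 cKO libraries. Pbrm1 cKO library 1 was highest and Pbrm1 cKO library 3 lowest, so the groups overlapped (0.46, SE 0.52, limma adjusted p = 0.714). The tags over its summit numbered 93, 92 and 52 in WT and 132, 94 and 85 in Pbrm1 cKO libraries. The region 0.5 kb upstream of the start ranked 29700, 34349 and 25336 in WT and 35322, 21254 and 21907 in Pbrm1 cKO (0.22, SE 0.33, limma adjusted p = 0.80).

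Further inside the gene, the other regions of the Ptger4 start had negative differences, without passing the test. At 0.4 kb downstream the ranks were 50471, 27079 and 25571 in WT and 39916, 46276 and 61975 in Pbrm1 cKO (−0.57, SE 0.30, limma adjusted p = 0.361). At 1.9 kb downstream, in a region of the WT list alone, they were 52831, 58356 and 36950 in WT and 61561, 63170 and 52978 in Pbrm1 cKO (−0.28, SE 0.17, limma adjusted p = 0.434). The region at 1.9 kb was a member only through the genotype in which it ranked higher, so its direction supports nothing. In both regions the genotypes overlapped. Of the distal regions, the one 49.5 kb downstream, in an intron outside Ptger4, ranked 22700, 17149 and 17205 in WT and 16852, 17330 and 26776 in Pbrm1 cKO (−0.07, SE 0.33, limma adjusted p = 0.942). The intronic region 8.4 kb downstream of the start, inside the gene, ranked 29628, 25046 and 31662 in WT and 15607, 27033 and 33370 in Pbrm1 cKO (0.25, SE 0.34, limma adjusted p = 0.783). Both held an AP-1 match, and neither separated the genotypes.

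The Ptgir promoter region (chr7:16905506-16906080), for the prostacyclin receptor, was in the Pbrm1 cKO list alone. It ranked 34474, 61753 and 53610 in WT and 41975, 33492 and 48504 in Pbrm1 cKO libraries (0.25, SE 0.25, limma adjusted p = 0.676). WT library 1 ranked it nearly as high as the best Pbrm1 cKO library, so the groups overlapped. The best distal region, 44.9 kb downstream, held a cAMP response element match and ranked 14078, 14849 and 30143 in WT and 10686, 17000 and 8673 in Pbrm1 cKO (0.67, SE 0.38, limma adjusted p = 0.412).

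The Ptgir window also held a weak region at a neighbouring gene. It lay 36.8 kb upstream of Ptgir (chr7:16869534-16869765), near the annotated start of a retained-intron transcript of the protein kinase gene Prkd2, and was in the Pbrm1 cKO list alone. It was thus a member only through the genotype in which it ranked higher, which favours that direction, and its test carries no weight as support. WT library 1 ranked it 65953 with 8 tags, and WT libraries 2 and 3 had no entry. The Pbrm1 cKO libraries ranked it 53244, 37688 and 53335 with 21, 26 and 17 tags. Every Pbrm1 cKO library was above every WT library, although the region was weak in all of them (0.47, SE 0.15, limma adjusted p = 0.142). On normal scores of the ranks, which spread the low ranks more, the difference was 1.67 (limma adjusted p = 0.0156). That adjusted p ran from 0.0150 to 0.0934 when single libraries were left out, and missed the threshold without WT library 1 or 2 and without Pbrm1 cKO library 1 or 2 (0.0781, 0.0832, 0.0651 and 0.0934).

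The Ptger2 promoter region (chr14:44988401-44989254), which also covers starts of the antisense gene model Gm17173 and of Gm49364, was in the Pbrm1 cKO list alone. The single libraries gave no higher rank there in that genotype, with 51902, 60044 and 37304 in WT and 60844, 59551 and 54958 in Pbrm1 cKO libraries (−0.26, SE 0.17, limma adjusted p = 0.483). The best open region of the window lay 61.8 kb downstream (chr14:45049658-45050647), in intergenic sequence with an AP-1 match. Its ranks were 10342, 9898 and 16110 in WT and 31560, 12448 and 18886 in Pbrm1 cKO libraries. Pbrm1 cKO library 2 ranked it above WT library 3, so the groups overlapped (−0.72, SE 0.38, limma adjusted p = 0.365).

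Ptgdr, which encodes the DP1 receptor for prostaglandin D2, had 3 regions, of which 1 was in both lists and 2 in the WT list alone. The shared region 6.6 kb upstream of the start (chr14:44865708-44866244), in an intron of the overlapping pseudogene Gm16976, ranked 23587, 36935 and 17341 in WT and 48526, 57391 and 59121 in Pbrm1 cKO libraries. Its summits held 31, 20 and 20 tags in WT and 17, 12 and 11 in Pbrm1 cKO libraries. Every Pbrm1 cKO library was below every WT library. The mean rank score was 1.43 ± 0.55 in WT and 0.28 ± 0.15 in Pbrm1 cKO (SD, n = 3 each), a difference of −1.15 (SE 0.31).

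The adjusted p of this region was 0.106 in limma over all 66679 regions, so it missed the threshold of 0.05. It was the smallest adjusted p of all member regions. Normal scores gave −1.26 with a limma adjusted p of 0.0405, which fell on the other side of the threshold. That call was lost when any library but WT library 2 was left out (adjusted p from 0.0832 to 0.147, and 0.0440 without WT library 2). Without WT library 3, which had the fewest tags and ranked this region best, the difference in rank score was −0.89 (limma adjusted p = 0.137).

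The Ptgdr promoter region (chr14:44858820-44859715), which also covers the start of Gm16976, was in the WT list alone. Like the region past the end of the gene below, it was a member only through the genotype in which it ranked higher, so the directions of both are a description and support nothing. WT libraries 1 and 2 ranked it 50710 and 48772 with 16 and 15 tags, Pbrm1 cKO libraries 1 and 2 ranked it 65347 and 66162 with 8 and 5 tags, and library 3 of both genotypes had no entry. The groups overlapped only through the missing entry of WT library 3 (−0.28, SE 0.12, limma adjusted p = 0.270). Without WT library 3 the difference was −0.41 (limma adjusted p = 0.118). The third region, 8.5 kb downstream of the start and past the end of the gene (chr14:44850767-44850946), was also in the WT list alone. It ranked 48267, 49597 and 56250 in WT and 63012, 65332 and 64250 in Pbrm1 cKO libraries without overlap (−0.32, SE 0.12, limma adjusted p = 0.201).

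The Ptgdr window as a whole also held fewer relaxed-list intervals in Pbrm1 cKO libraries. They numbered 10, 13 and 14 distinct intervals in WT libraries 1, 2 and 3 and 7, 7 and 4 in Pbrm1 cKO libraries 1, 2 and 3. The windows of the other 8 receptors overlapped between genotypes, so 1 of 9 receptor windows was lower in every Pbrm1 cKO library and 0 of 9 higher, beside 5.81% and 3.96% of 21911 protein-coding gene windows. Ptgdr and its neighbour Ptger2 lie on chromosome 14, 13.7 and 13.9 Mb from Pbrm1, the deleted gene. Of the merged regions within 20 Mb of Pbrm1, 13.3% stood lower in every Pbrm1 cKO library, against 10.8% of all merged regions. Whether the position bears on the Ptgdr values was not tested.

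**Figure D3:**
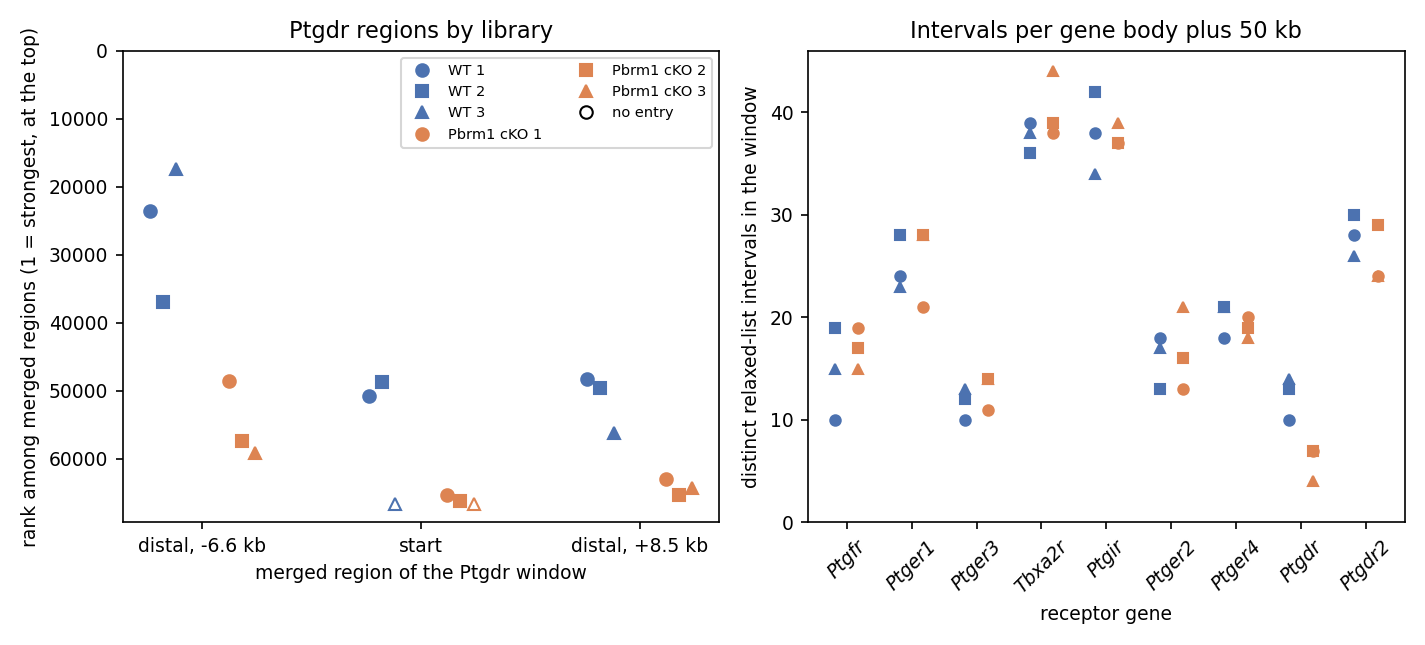
Left, rank of the 3 Ptgdr regions in each library, with rank 1 at the top and open symbols for libraries with no entry. Right, number of distinct relaxed-list intervals in each receptor window, with blue for WT and orange for Pbrm1 cKO. At both distal Ptgdr regions all orange points lie below all blue points, and the Ptgdr window is the only 1 of 9 whose counts do not overlap.

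Ptgdr2, the DP2 receptor gene (chromosome 19, 10937160 to 10942511), had no promoter region, and no library had a relaxed entry within 1 kb of its start. Its window nonetheless held the best-ranked distal region of all 9 receptors, 15 kb downstream in intergenic sequence (chr19:10951953-10952575). That region, whose TEAD match is shown above, ranked 12307, 12608 and 13050 in WT and 14512, 20444 and 16812 in Pbrm1 cKO libraries. The 3 WT libraries lay close together and above all Pbrm1 cKO libraries, but the difference was small beside the error that limma assigned (−0.43, SE 0.32, limma adjusted p = 0.550).

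Over all 73 member regions, 0 passed the limma threshold of an adjusted p of 0.05, beside 45 of all 66679 regions (0.0675%). At an unadjusted p under 0.05 there were 3 lower, all at Ptgdr, and 2 higher (6.85%, against 15.9% of all regions). Of these 5, the Ptgdr promoter, the Ptgdr region past the gene and the region at Prkd2 came from 1 genotype's list. With normal scores 1 region was lower and 1 higher past the threshold (2.74%, against 2.33%), namely the Ptgdr distal region and the region at Prkd2 described above. Groups did not overlap in 4 regions lower in Pbrm1 cKO (5.48%, against 10.8%) and in 3 higher (4.11%, against 10.6%). Both shares lay below the background. The median difference was 0.08 over the members and 0.00055 over all regions, and 35 of the 73 differences were negative.

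**Figure D4:**
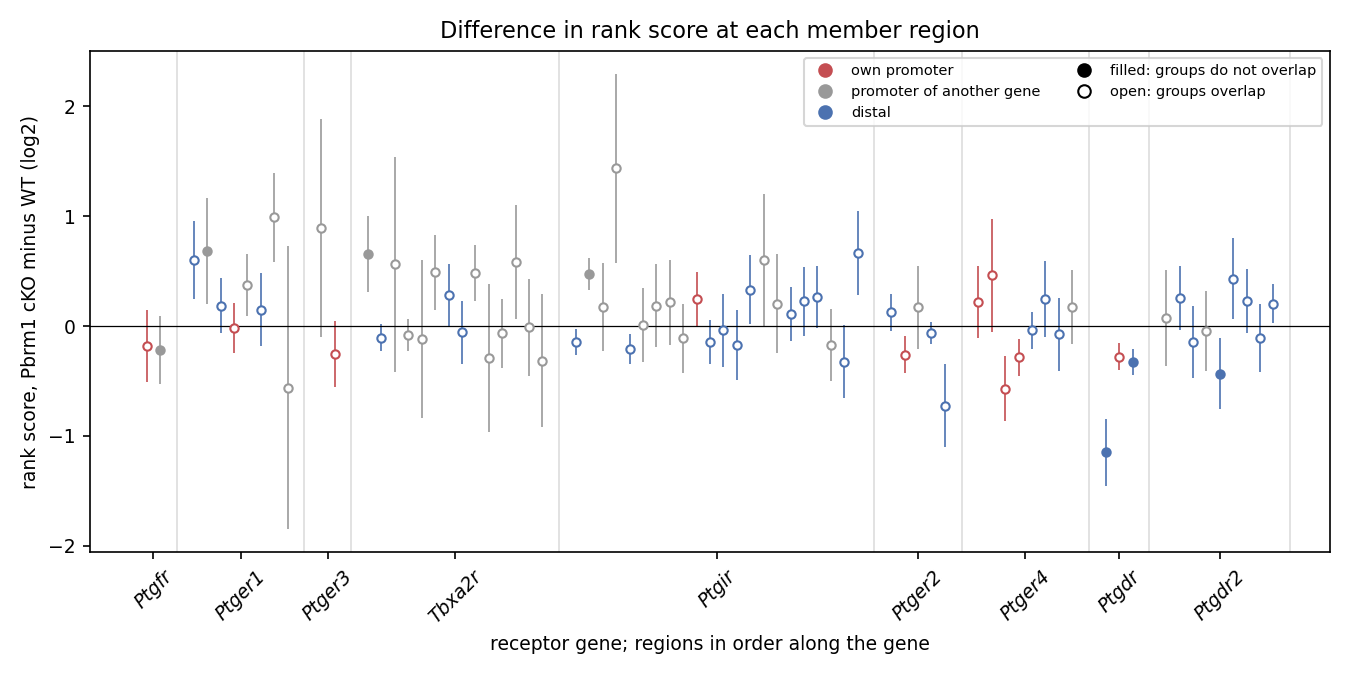
Difference in rank score (log2, Pbrm1 cKO minus WT) with its limma SE for each of the 73 regions, grouped by receptor and ordered along the gene. Filled symbols mark the 7 regions whose groups do not overlap. The 3 Ptgdr regions all lie below 0, the lowest at −1.15.

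Differences ran from −1.15 to 0.67 over the 32 distal regions (median −0.04), from −0.57 to 0.46 over the 10 receptor promoter regions (median −0.22, 7 negative) and from −0.56 to 1.44 over the 31 promoters of other genes (median 0.18). Over all merged regions the medians were 0.02 at distal regions and −0.04 at promoters.

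Genes upstream and downstream of the receptors were examined in the same fit. Of 17 genes of prostanoid synthesis, transport and clearance, 14 had a promoter region, all but Ptgis, Ptgds and Hpgds, which encode the synthases of prostacyclin and prostaglandin D2. In their 17 regions 0 passed the limma threshold, and 6 lower and 0 higher had an unadjusted p under 0.05 (35.3%, against 15.9% of all regions). The median difference was −0.42, beside −0.04 over all promoter regions, and 13 of 17 were negative. The smallest adjusted p was 0.164, at a region of Ptgs1, a cyclooxygenase gene (−0.49, SE 0.17). Another of the 6 was also at Ptgs1 (−0.43, SE 0.20, limma adjusted p = 0.313), so they were not 6 separate genes. Slco2a1, the prostaglandin transporter gene, had −0.42 (SE 0.17, limma adjusted p = 0.233). The rest of the 6 had the largest differences among them. They were at Akr1b3 (−1.19, SE 0.52, limma adjusted p = 0.274), Ptgr1 (−1.01, SE 0.39, limma adjusted p = 0.216) and Hpgd (−0.78, SE 0.35, limma adjusted p = 0.290).

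Of 30 receptor signalling genes, 29 had a promoter region, all but Plcb2. In their 49 regions 0 passed the threshold, and 1 did with normal scores (beside 2.33% of all regions). At an unadjusted p under 0.05 there were 2 higher and 2 lower (8.16%, against 15.9% of all regions), and the median difference was 0.02. The region with the smallest p was at Prkaca, the catalytic subunit gene of the cAMP-dependent kinase through which relaxant receptors act (3.06, SE 0.71, limma adjusted p = 0.0906, and 0.0269 with normal scores). The other higher one was at Adcy6, an adenylyl cyclase gene (0.87, SE 0.41, limma adjusted p = 0.306). The lower ones were at Adcy3, another adenylyl cyclase gene (−1.31, SE 0.38, limma adjusted p = 0.123), and Gnai3, which encodes an inhibitory G protein subunit (−1.96, SE 0.59, limma adjusted p = 0.133). Both lists were chosen with earlier results of these data known.

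The promoters whose 6 rank scores were most like those of the main Ptger4 promoter were those of Dhx36, Utp23 and Arhgap28, with Euclidean distances of 0.568, 0.629 and 0.694 among 18822 promoter regions of other protein-coding genes. That likeness covers the level and its pattern over 6 libraries.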

How the data were processed

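ATAC-seq peak lists of primary oviductal muscle cells were used, 1 relaxed list per library (3 WT, 3 Pbrm1 cKO) and 1 conservative list per genotype. Per the study's methods and processing notes, the authors trimmed reads with cutadapt, aligned them to GRCm38 with Bowtie2 and called peaks with MACS2 in the ENCODE ATAC-seq pipeline. Those methods describe uterine cells and were taken to apply here because the tools in the labels match. The relaxed lists were cut by the authors at p 0.01 and at most 300000 entries, and the conservative lists passed an irreproducible discovery rate (IDR) of 0.05. For each peak the authors deposited a ratio, its fold enrichment over local background, and a −log10 p.

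Peak lists hold no read counts, so the study's count model was replaced by within-library ranks, which hide a change common to a whole library. Both conservative lists were merged into 66679 regions, ranked in each library by the best −log10 p over them, with no entry as the lowest tied rank. limma 3.58.1 in R 4.3.3 (lmFit, eBayes with trend) then modelled the rank score, log2 of the region number over the rank, across all regions, with Benjamini-Hochberg adjustment and a threshold of 0.05. The procedure was also run on simulated scores with a normal spread and no absent entries. That run does not cover regions that lack an entry in some libraries. Tags over a summit were computed from its fold and p, and 433 of 433 member entries gave whole numbers within 0.001 in −log10 p. Total reads per library are unknown, so an absent entry does not show closed chromatin. Genes and starts came from GENCODE M21, sequences from the RefSeq GRCm38 assembly.

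The members and gene lists were chosen with earlier results of these data known. Named regions were all receptor promoter regions, each receptor's distal regions with the best mean rank and the smallest p, and regions past the threshold or in 1 list with separated groups. The regions at Ifi44l, Gipc1 and Tjp3, and the pathway genes given with values, were named after their values were seen. Replicate numbers showed no clear pairing of the libraries (correlations of their deviations −0.00289, −0.0549 and 0.00906). These correlations cannot exclude pairing at some regions, and a fit with the replicate block is given below as an alternative. The other promoters of neighbouring genes are given as counts and ranges, and the values of 1 of them by itself are not reported here.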

Additional observations from a re-analysis of the deposited data

How the results depend on the processing

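Among the member regions, 0 passed the limma threshold in either direction under every alternative but normal scores of the ranks, where 1 was higher and 1 lower in Pbrm1 cKO. Over all regions normal scores called 662 higher and 890 lower, against 26 and 19, and the replicate block gave 66 and 65. With the replicate block the Ptgdr distal region had a difference of −1.15 (limma adjusted p = 0.0798) and 0 members passed. In normal scores with the block, an alternative chosen after seeing the data like the normal scores without single libraries, both calls were kept (adjusted p 0.0386 and 0.0250). Non-overlapping groups numbered 4 lower and 3 higher in the report. They became 2 lower among regions above the median rank score, 1 higher in windows of 20 kb, and 11 lower and 9 higher in windows of 100 kb. Over all merged regions the shares were 10.8% lower and 10.6% higher. The wider windows held more regions, as counted below, and the higher counts did not bring either share above that background. Without single libraries they ran from 4 to 12 lower and from 5 to 10 higher, with fewer libraries to separate (15.1% to 17.0% lower and 14.7% to 17.3% higher over all regions). Windows of 20 kb held 30 regions of both lists, 5 of the WT list alone and 16 distal, and windows of 100 kb 98, 16 and 62, with 17 of the Pbrm1 cKO list alone. Peaks above the median of their own IDR list left 3 regions of each genotype alone, 20 distal and 5 receptor promoter regions. Among the regions named by the rules above, the sign of the difference turned at 5 when single libraries were left out. Signs at the remaining member regions were not followed through the alternatives. The ranges were −0.38 to 0.026 at the Ptgfr promoter, −0.23 to 0.10 at the Ptger1 promoter (0.081 with normal scores), −0.20 to 0.93 at the main Ptger4 promoter, −0.21 to 0.14 at the Ptger4 distal region at 49.5 kb and −0.069 to 0.48 at that at 8.4 kb. Pbrm1 cKO library 1 decided it at the Ptgfr and main Ptger4 promoters and at 8.4 kb, and Pbrm1 cKO library 3 at 49.5 kb. The cause was not tested. Tags over the member summits, with medians of 21 to 40, limit the precision.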
